A study of Mus musculus with 5 samples.

Results

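The histone genes of the mouse were followed on arrays that compared the hippocampus of newborn mice exposed to cocaine before birth with that of saline controls. Members were the probes whose gene symbol, current or older, begins with Hist1h, Hist2h, Hist3h, Hist4h, H2af, H3f3 or H1f. Current symbols alone gave 17 probes of 11 genes, since most cluster genes have been renamed. With the older symbols there were 65 probes of 49 genes, out of 44290 probes and 19087 genes with a symbol. Of these genes, 36 are replication-dependent cluster genes, covered by 44 probes, and 13 are replacement variants, covered by 21 probes.

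Cocaine pups were born to CD1 dams injected under the skin with cocaine hydrochloride in saline at 20 mg/kg, 2 times a day, on gestational days 8 to 19. Saline pups came from pair-fed CD1 dams that received saline alone on the same days. All pups were males, all litters of both groups were raised by surrogate dams, and the tissue was taken on postnatal day 3. The pyramidal cell layer of the hippocampus was cut out by laser from frozen, stained sections. Cocaine RNA was read in channel 1 and saline RNA in channel 2, with a fixed dye for each, of 5 whole-genome oligonucleotide arrays, which the labels call preliminary. The labels do not tie an array to a litter, so the spread between arrays may be partly technical.

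Histones are the proteins on which DNA is wound. Pairs of H2A, H2B, H3 and H4 form the core of the nucleosome, and linker histone H1 binds the DNA where it enters and leaves. Cluster genes lie in dense groups, have no introns, and make mRNAs that end in a stem-loop in place of a poly(A) tail. They are transcribed mainly while DNA is copied, so their mRNAs are abundant in dividing cells and scarce in neurons that have left the cell cycle. Replacement variants are transcribed throughout the cell cycle from genes elsewhere, usually give polyadenylated mRNAs, and become a growing part of neuronal chromatin with age.

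Each value was a log2 ratio of the channels, set relative to the median of all measured probes on its array, so that 0 is the level of the middle probe. The order of the channels in the labels makes cocaine over saline the likely direction, but no source used here states it for these arrays. No array had its dyes exchanged, so dye and cocaine cannot be told apart. Arrays 1 and 2 stood apart, with deposited medians of -2.68 and -2.52, against -0.37, -0.78 and 0.26 on arrays 3 to 5. The table holds ratios only, so whether markers of the pyramidal layer were present could not be checked by level. A gene was tested when measured on at least 3 arrays (limma, Benjamini-Hochberg adjustment over all 28035 genes and unnamed probes), with an adjusted p under 0.05 as the threshold.

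Histone genes stood high on all 5 arrays relative to the middle probe. Of the 48 that could be tested, 21 were higher than the middle probe in the likely direction of cocaine over saline, 0 were lower, and 27 did not pass the threshold, with adjusted p from 0.074 to 0.99. If the ratios run the other way, the same 21 were lower in cocaine and 0 higher. All counts of higher and lower genes below are relative to the array median in the likely direction; with the deposited values or the ribosomal protein genes taken as 0, 0 histone genes were higher and 3 or 17 were lower. At an unadjusted p under 0.05, 28 were higher and 0 lower, against 3744 and 2922 of all 28035 genes and unnamed probes. With adjustment, 5.89% of all were higher and 1.16% were lower. The median of the histone gene means was 1.32, against -0.14 for all 28035, and the means ran from -1.03 to 2.87. The 21 had adjusted p from 0.0085 to 0.032 and were all measured and above 0 on every array. With the signs of the 5 arrays permuted exactly, each of them alone had p = 0.0625 (two-sided), which is as small as 5 arrays can give.

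How often a gene was measured bears on these counts. All 21 genes were among the 36 histone genes measured on all 5 arrays, which makes 58.3% of them, against 9.92% of the 9140 genes with a symbol measured on all 5. Of the 36, 24 lay above the array median on every array, against 21.7% of the 9140. For all of the 21 but H3c14, passing the threshold needed both array 1 and array 2, while the ratios stayed above 0 without them. Arrays 1 and 2 alone gave 20 of 47 testable histone genes in limma, all higher, with 19 of the 21 among them. In that setting 5.24% of all 25551 genes and unnamed probes were higher. Without array 1 the test kept 1 of the 21 genes, H3c14, and without array 2 it kept the same gene, while the whole table fell to 54 and 61 higher genes (0.232% and 0.258%). Arrays 3 to 5 alone gave 0 histone genes by limma and 0 genes in the whole table (0%). At an unadjusted p under 0.05, in either direction, they gave 22 of 36 histone genes, against 2722 of all 12689. The cluster median was 1.57 without array 1, 1.33 without array 2 and 1.59 on arrays 3 to 5, and the replacement median 1.41, 1.06 and 0.82. The mean of H4c6 was 2.66, 2.55 and 2.16 in these sets, and that of H3f3a 2.07, 1.61 and 1.46.

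**Figure D1:**
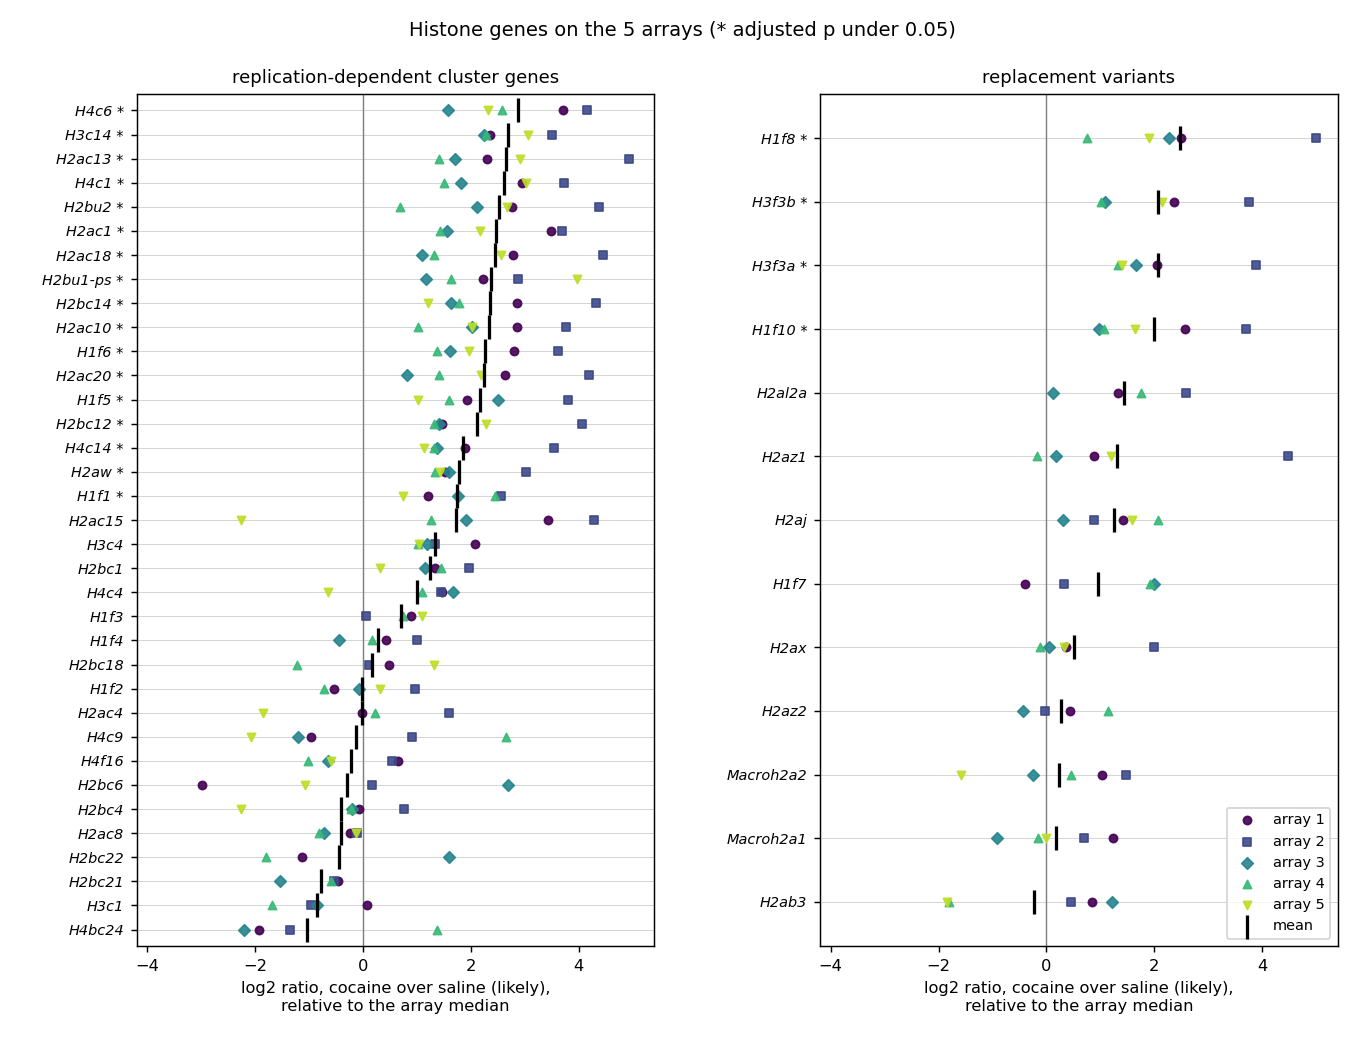
Log2 ratio of each tested histone gene on each of the 5 arrays, relative to the array median, with cluster genes on the left and replacement variants on the right; symbols and colours mark the arrays, the black bar is the mean, and an asterisk marks an adjusted p under 0.05. The 21 marked genes lie above 0 on all 5 arrays, and array 2 is the highest array for most of them.

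Among the cluster genes, 17 of the 35 tested were higher and 0 were lower, with a median of 1.72. H4 histones form the central tetramer of the nucleosome with H3, and 3 of their 6 genes were higher. H4c6 had the highest mean of all histone genes, with 3.71, 4.16, 1.58, 2.57 and 2.32 on arrays 1 to 5 (mean 2.87 ± 1.05, SD, n = 5, adjusted p = 0.011), a ratio 7.30-fold that of the middle probe. H4c1 had 2.96, 3.73, 1.82, 1.49 and 3.02 (mean 2.61, adjusted p = 0.012). H4c14 had 1.90, 3.55, 1.37, 1.32 and 1.13 (mean 1.85, adjusted p = 0.030). No array of these genes fell below 1, and arrays 1 and 2 were the highest for H4c6 and H4c14.

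The remaining H4 genes did not pass. H4c4 had 1.47, 1.44, 1.66 and 1.09 on arrays 1 to 4 but -0.66 on array 5 (mean 1.00, adjusted p = 0.21). H4c9 had -0.97, 0.91, -1.21, 2.65 and -2.07 (mean -0.14), and H4f16 had 0.65, 0.54, -0.65, -1.03 and -0.59 (mean -0.22). Values of H4c9 and H4f16 lay on both sides of 0, although H4 genes encode almost the same protein.

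H3, the partner of H4, had 3 cluster genes. H3c14 had 2.35, 3.51, 2.25, 2.28 and 3.05, and this narrow spread gave the lowest adjusted p of any histone gene (mean 2.69 ± 0.57, SD, n = 5, adjusted p = 0.0085). H3c4 was also above 0 on every array, at 2.08, 1.34, 1.18, 1.01 and 1.03, but missed the threshold (adjusted p = 0.074). H3c1 had 0.067, -0.97, -0.85 and -1.68 on the 4 arrays that measured it (adjusted p = 0.32). H3c1 had a 95% interval from -1.94 to 0.23, which includes 0.

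H2A, which pairs with H2B on the outer face of the nucleosome, had the largest share, with 6 of 9 tested cluster genes higher. H2ac13 had 2.30, 4.94, 1.70, 1.42 and 2.91 (mean 2.65, adjusted p = 0.013). H2ac18 had 2.78, 4.45, 1.10, 1.32 and 2.57 (mean 2.44, adjusted p = 0.015). H2ac10, read by a pair of probes that differed by 0.23, had 2.86, 3.77, 2.01, 1.02 and 2.01 (mean 2.33, adjusted p = 0.014). In all of these, array 2 was the highest.

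The other higher H2A genes were close behind. H2ac20 had 2.63, 4.19, 0.81, 1.42 and 2.19 (mean 2.25, adjusted p = 0.019). H2aw, from the small Hist3 group, had 1.52, 3.02, 1.59, 1.33 and 1.43 (mean 1.78, adjusted p = 0.027), with all arrays but array 2 within a narrow range. H2ac1, which encodes a testis H2A, had 3.48, 3.69, 1.55, 1.43 and 2.18 (mean 2.47, adjusted p = 0.013).

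H2A genes that did not pass included H2ac15, at 3.42, 4.27, 1.91 and 1.26 on arrays 1 to 4 and -2.26 on array 5 (adjusted p = 0.16). H2ac8 was below 0 on every array, at -0.24, -0.10, -0.73, -0.81 and -0.13 (mean -0.40, adjusted p = 0.59). H2ac4 had a mean of -0.012 on 4 arrays. H2ac6 was measured on 2 arrays only, at -0.24 and -3.72, and was not tested.

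H2B genes were divided, with 4 of 11 higher and a median of 0.17. H2bu2 had 2.76, 4.38, 2.12, 0.68 and 2.68 (mean 2.52, adjusted p = 0.014). H2bu1-ps, which carries the suffix of a pseudogene, had 2.22, 2.87, 1.17, 1.62 and 3.97 (mean 2.37, adjusted p = 0.014), and array 5 was its highest. H2bc14 had 2.85, 4.31, 1.62, 1.77 and 1.21 (mean 2.35, adjusted p = 0.016). H2bc12 had 1.46, 4.07, 1.40, 1.32 and 2.29 (mean 2.11, adjusted p = 0.021).

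Most other H2B genes had means near or below 0. H2bc4 had -0.066, 0.76, -0.21, -0.22 and -2.26 (mean -0.40, adjusted p = 0.65). H2bc21 was below 0 on its 4 arrays, with a mean of -0.79, and H4bc24, whose older symbol Hist1h2br places it with H2B, had the lowest mean of the tested histone genes, at -1.03 (adjusted p = 0.33). H2bc6, H2bc22 and H2bc18 had means of -0.30, -0.45 and 0.17. H2bc1, a testis H2B, was above 0 on all 5 arrays (mean 1.25, adjusted p = 0.098).

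By locus, 10 of 25 tested genes of the large Hist1 group, 4 of 6 of Hist2, 3 of 3 of Hist3 and 0 of 1 of Hist4 were higher. The higher genes therefore came from more than 1 cluster.

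Linker histones compact the fibre between nucleosomes, and dividing and resting cells use different H1 genes. Of the 6 cluster H1 genes, 3 were higher. H1f5 had 1.92, 3.81, 2.51, 1.60 and 1.01 (mean 2.17 ± 1.06, SD, n = 5, adjusted p = 0.018). H1f1 had 1.21, 2.55, 1.76, 2.44 and 0.74 (mean 1.74, adjusted p = 0.032). H1f6, the testis linker histone, had 2.80, 3.61, 1.61, 1.38 and 1.96 (mean 2.27, adjusted p = 0.014).

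The other somatic cluster H1 genes did not pass the threshold. H1f2 had -0.54, 0.97, -0.075, -0.73 and 0.32 (mean -0.011, adjusted p = 0.99). H1f4 had 0.42, 0.99, -0.44 and 0.17 on arrays 1 to 4 (mean 0.29, adjusted p = 0.77). H1f3 had 0.89, 0.060, 0.74 and 1.10 on arrays 1, 2, 4 and 5 (mean 0.70, adjusted p = 0.41). The intervals of these genes were wide: for H1f2 the 95% interval of the mean ran from -0.95 to 0.93.

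Outside the clusters, 2 of 3 H1 genes were higher. H1f10, a widely expressed linker histone with a polyadenylated mRNA, had 2.57, 3.70, 0.98, 1.07 and 1.64 (mean 1.99, adjusted p = 0.026). H1f8, the oocyte linker histone, had 2.49, 5.00, 2.28, 0.75 and 1.90 (mean 2.48, adjusted p = 0.018). H1f7, a linker histone of spermatids, had -0.39, 0.33, 1.99 and 1.92 on arrays 1 to 4 (mean 0.96, adjusted p = 0.31).

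Histones of the germ line are not known for a role in hippocampal neurons, yet 3 of these 7 genes were higher (H2ac1, H1f6 and H1f8), and their median was 1.44. Probe sequences were not used here, so whether such probes also bind the mRNA of somatic histones was not tested.

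H3.3, the replacement H3, is placed in chromatin outside DNA replication and builds up in neurons with age. The same protein is made from H3f3a and H3f3b, and both were higher. H3f3a had 2.05, 3.89, 1.67, 1.32 and 1.40 (mean 2.07 ± 1.06, SD, n = 5, adjusted p = 0.020). H3f3b had 2.37, 3.76, 1.09, 1.00 and 2.14 (mean 2.07 ± 1.12, SD, n = 5, adjusted p = 0.022). These means correspond to ratios 4.19-fold and 4.20-fold that of the middle probe. All probes of both genes were in step, with means of 2.20, 1.97 and 2.03 for H3f3a and of 1.97 and 2.17 for H3f3b.

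Of the H2A replacement variants, 0 of 8 passed the threshold in limma, and 3 were higher at an unadjusted p under 0.05 (H2al2a, H2aj and H2az1). Without ratios of small whole numbers, whose source was not tested, these same 3 genes passed in limma. Their means were then 2.09 for H2aj (n = 4, adjusted p = 0.0077), 1.88 for H2al2a (n = 3, adjusted p = 0.019) and 2.33 for H2az1 (n = 5, adjusted p = 0.0055). In that setting 48.3% of all genes and probes were higher. H2aj and H2az1 were each read by a pair of probes with means of opposite sign. For H2az1 the mean of 2.33 is that of its higher probe alone, without the other probe (mean -0.76). The difference of the H2A replacement variants from the H3.3 genes was not tested. H2az1, which marks promoters and enhancers, had 0.89, 4.48, 0.18, -0.17 and 1.19 (mean 1.31, unadjusted p = 0.045, adjusted p = 0.20), and array 2 lay far above the other arrays. H2az2, its near twin, had 0.43, -0.026, -0.44 and 1.13 on arrays 1 to 4 (mean 0.28, adjusted p = 0.78). H2aj had 1.42, 0.89, 0.31, 2.07 and 1.59 (mean 1.26, adjusted p = 0.0998), with values above 0 on every array.

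H2ax, which is phosphorylated around DNA breaks, had 0.36, 2.00, 0.050, -0.13 and 0.32 (mean 0.52, adjusted p = 0.52). Both macroH2A genes, whose proteins carry a large extra domain and are known from silent chromatin, lay near 0. Macroh2a1 had 1.23, 0.70, -0.91, -0.16 and 0 (mean 0.17, adjusted p = 0.85). Macroh2a2 had 1.03, 1.47, -0.24, 0.46 and -1.59 (mean 0.23, adjusted p = 0.82). For both, arrays 1 and 2 were above 0 and array 3 below.

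The short H2A variants of the testis did not pass either. H2al2a had 1.32, 2.58, 0.12 and 1.75 on arrays 1 to 4 (mean 1.44, adjusted p = 0.12). H2ab3 had 0.84, 0.45, 1.22, -1.81 and -1.85 (mean -0.23, adjusted p = 0.83).

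Set side by side, 17 of 35 cluster genes and 4 of 13 replacement genes were higher. The class medians on arrays 1 to 5 were 1.47, 2.71, 1.48, 1.32 and 1.17 for cluster genes and 1.23, 2.00, 0.31, 1.00 and 1.30 for replacement genes. Cluster minus replacement was 0.24, 0.71, 1.17, 0.32 and -0.13, a mean of 0.46 ± 0.50 (SD, n = 5), above 0 on 4 of 5 arrays. This difference was smaller than its spread between arrays, and was 0.29 without array 3 and 0.14 with single probes in place of gene means. In some other settings the difference was larger than its spread. With genes measured on all 5 arrays it was 0.65 ± 0.36 (SD, n = 5), above 0 on 5 of 5. Without array 5 it was 0.61 ± 0.43 (SD, n = 4), above 0 on 4 of 4. Leaving out the germ line genes gave 0.42 ± 0.52 (SD, n = 5). Both classes lay above the median of all genes with a symbol on every array, which ran from -0.032 to 0.12.

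**Figure D2:**
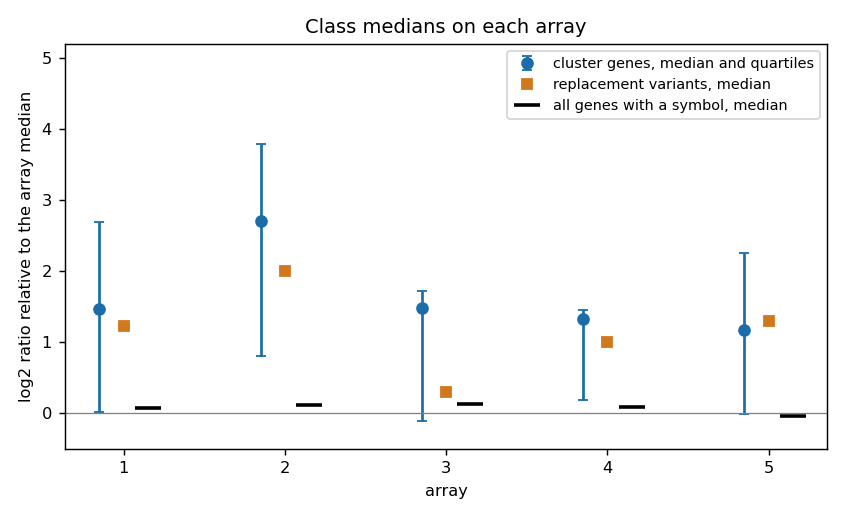
Median log2 ratio of the cluster genes (circles, bars from the lower to the upper quartile of genes) and the replacement variants (squares) on each array, beside the median of all genes with a symbol (lines), relative to the array median. Cluster genes lie above replacement variants on arrays 1 to 4 and below them on array 5, and array 2 has the highest medians, 2.71 and 2.00.

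The spread within a class was wider than the distance between the classes. The lower and upper quartiles of the gene means were -0.074 and 2.34 for cluster genes, and 0.28 and 1.99 for replacement genes. Within the cluster class, the medians by type were 1.22 for H1, 2.25 for H2A, 0.17 for H2B, 1.33 for H3 and 1.43 for H4. Within the replacement class they were 1.99 for H1, 0.40 for H2A and 2.07 for H3.

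**Figure D3:**
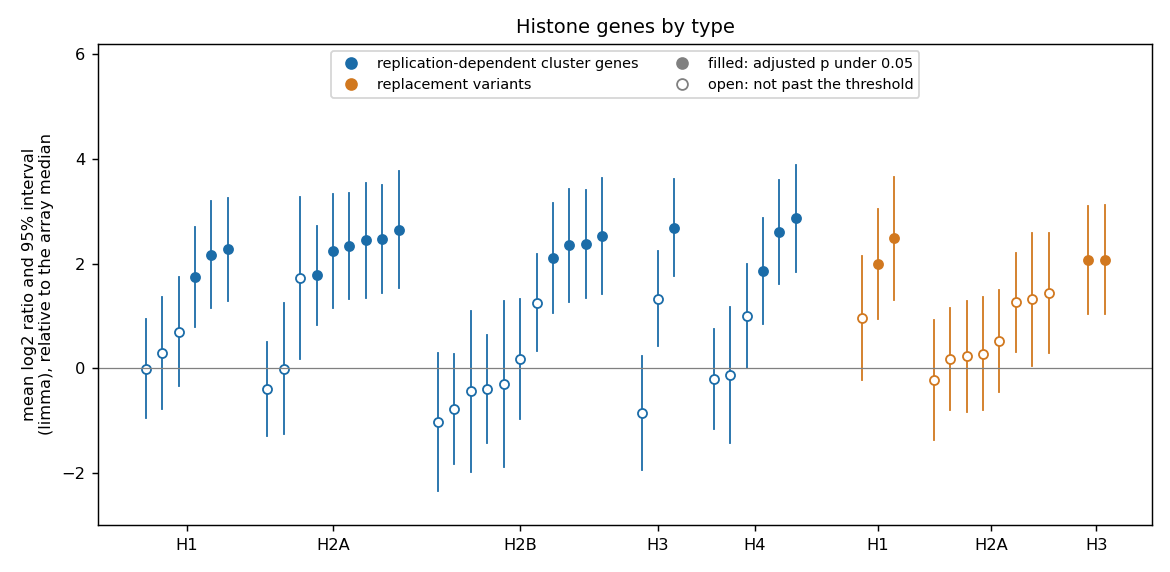
Mean log2 ratio relative to the array median (points) and its 95% interval from limma (lines) for each tested histone gene, with cluster genes in blue on the left, replacement variants in orange on the right, and filled points for an adjusted p under 0.05. Within H1, H2A, H2B and H4 of the clusters, genes near 2 stand beside genes near 0, and the 3 cluster H3 genes lie at 2.69, 1.33 and -0.86. All 8 replacement H2A genes are open, of which H2aj, H2al2a and H2az1 passed once ratios of small whole numbers were left out.

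The promoters of both classes were read from RefSeq (build GRCm38.p6, from 250 bases before to 50 after the start), which held 43 of the 49 members. The following windows of 150 bases end just before the start site and show a linker, a core and both H3.3 genes, written in the sense of the gene. Capitals mark matches on either strand to CCAAT (a box bound by NF-Y), TATAA (the core of the TATA box), ATTTGCAT (the octamer bound by Oct1) or AAACACA (the box of H1 genes).
H1f5 (chr13:21780626-21780775, minus strand): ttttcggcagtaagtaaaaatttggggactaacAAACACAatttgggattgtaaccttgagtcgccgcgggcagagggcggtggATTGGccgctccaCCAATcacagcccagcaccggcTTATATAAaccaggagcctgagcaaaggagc
H2bc14 (chr13:21721894-21722043, plus strand): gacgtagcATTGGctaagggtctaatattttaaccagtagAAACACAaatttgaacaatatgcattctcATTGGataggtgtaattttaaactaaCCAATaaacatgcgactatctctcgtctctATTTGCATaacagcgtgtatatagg
H3f3a (chr1:180813606-180813755, minus strand): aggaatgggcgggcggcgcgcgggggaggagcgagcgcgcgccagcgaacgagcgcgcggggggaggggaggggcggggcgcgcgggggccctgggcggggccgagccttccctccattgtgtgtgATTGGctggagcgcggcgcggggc
H3f3b (chr11:116024505-116024654, minus strand): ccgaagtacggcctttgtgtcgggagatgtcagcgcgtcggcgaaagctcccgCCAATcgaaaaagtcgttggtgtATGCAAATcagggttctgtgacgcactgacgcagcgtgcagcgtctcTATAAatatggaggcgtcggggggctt

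These windows differ in make-up. The H3f3a window has 80.7% G and C and a single CCAAT match, and the H2bc14 window has 34.7% and holds 3 CCAAT matches and the octamer. Although the H3.3 genes had almost the same mean ratio, H3f3b alone has matches to TATAA and the octamer.

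Over the whole window around the start site, TATAA was found in 27 of 31 cluster promoters and 2 of 12 replacement promoters, against 28.0% of all 27025 promoters. CCAAT was found in 28 of 31 and 8 of 12, against 41.1%. The octamer was found in 11 of 31 and 1 of 12, against 1.97%, and all 11 cluster matches were among the 18 H2A and H2B promoters. The H1 box was found in 9 of 31 and 1 of 12, against 8.22%, and in 5 of the 6 cluster H1 promoters. Median G and C content was 45.5% for cluster genes and 58.2% for replacement genes, against 52.7% for all.

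The same letters stood in cluster genes that were higher and in those that did not pass. TATAA was found in 12 of 15 higher genes and 14 of 15 that did not pass, CCAAT in 14 and 13 of 15, the octamer in 5 and 5 of 15, and the H1 box in 4 and 5 of 15. A match is a description of the sequence and not evidence of binding.

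Several probes read 1 gene in 13 cases, and in 6 of these the probes had means of opposite sign. For H2aj they were 2.37 and -0.98, for H2az1 2.33 and -0.76, for H4c4 2.29 and -0.28 and for H1f4 1.40 and -0.83. The other genes of this kind were H4f16 and Macroh2a1. None of these 6 genes was among the 21, and the 6 higher genes with several probes had probes of 1 sign. H2ac18, called higher from 1 probe (mean 2.44), is also named by 2 probes that were left out, with means of -0.054 and -0.93. Across the 13 genes the distance between the highest and lowest probe had a median of 1.33. Histone genes of a cluster resemble each other closely, and which of their mRNAs a probe reads was not tested.

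Many ratios were those of small whole numbers. Values that matched the log2 ratio of whole numbers up to 30 to 3 decimals, before centring, made up 21.7% of the probe values of the 21 higher genes (31 of 143) and 56.0% of those of the 27 genes that did not pass (84 of 150). Over all probes their share was 34.0% and 38.2% on arrays 1 and 2, and 85.8%, 86.7% and 86.2% on arrays 3 to 5. Without such values 26 of 30 testable histone genes were higher, against 48.3% of the 5222 genes and probes left, whose median stood at 1.37. The part of spot brightness in the calls was not tested.

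Genes that process, carry or accompany histones were read from lists. Of 16 genes for the end processing and transcription of cluster histone mRNA, 0 passed in limma, and their median was 0.19. At an unadjusted p under 0.05, 1 was higher and 1 lower, beside 3744 and 2922 of all 28035. Slbp, which binds the stem-loop, had 0.63, 0.25, 1.48 and 2.20 on arrays 1, 2, 4 and 5 (mean 1.14, adjusted p = 0.20). Eri1, a nuclease of the stem-loop, had a mean of -0.98 (adjusted p = 0.21). These were the smallest p of the list, and they lay on opposite sides of 0.

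Of 26 histone chaperones and deposition factors, 4 were higher and 0 lower, with a median of 0.47. Nap1l4, a chaperone of H2A and H2B, had 2.19, 3.21, 2.25, 1.49 and 1.16 (mean 2.06, adjusted p = 0.017). Npm1, a nucleolar chaperone, had 2.13, 2.44, 1.62, 0.87 and 1.87 (mean 1.79, adjusted p = 0.025). Chaf1b, a subunit of the factor that places H3 and H4 behind the replication fork, had 1.54, 2.09, 2.07, 1.71 and 0.93 (mean 1.67, adjusted p = 0.030). Ipo4, which carries histones into the nucleus, had a mean of 1.70 (adjusted p = 0.033).

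Of 33 genes of dividing cells, 2 were higher and 0 lower, and the median was 0.012. Lig1, the ligase of the lagging strand, had 2.34, 3.09, 1.59, 1.38 and 2.29 (mean 2.14, adjusted p = 0.014). Mcm6, of the replicative helicase, had a mean of 1.93 on 4 arrays (adjusted p = 0.030). With these lists the share of higher genes was 15.4% for chaperones and 6.06% for dividing cells, beside 5.89% over all.

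Of 3 further histone genes outside the name prefixes, 0 passed in limma, and 1 had an unadjusted p under 0.05. H2bfm had a mean of -1.34 and Hils1 of -0.49, each on 4 arrays.

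Cells other than pyramidal neurons were read from marker lists beside the histone values. Over all 28035 genes and unnamed probes, 5.89% were higher and 1.16% lower at the adjusted threshold. At an unadjusted p under 0.05, 3744 of them were higher and 2922 lower. Of the markers of progenitors and dentate granule cells, 1 of 14 was higher, Fabp7 at a mean of 2.34 (adjusted p = 0.014), and 1 was lower, Neurog2 at -2.41 (adjusted p = 0.030). At an unadjusted p under 0.05, 3 of the 14 were higher and 1 lower, and the median of the list was 0.66. Of 16 pyramidal markers 1 was higher, Slc17a6 (mean 1.87, adjusted p = 0.044). At an unadjusted p under 0.05, 3 of the 16 were higher and 1 lower, and the median of the list was 0.22. Of 15 interneuron markers 0 passed in limma, although 6 were higher at an unadjusted p under 0.05 and the median of the list was 0.75. Of 9 astrocyte markers 0 passed, with 3 higher at an unadjusted p under 0.05 and a median of 0.44. Of the oligodendrocyte and microglia markers, 0 of 9 and 0 of 8 passed in limma, with 1 of each higher at an unadjusted p under 0.05. Of 13 vascular markers, Col1a2 was lower (mean -1.86, adjusted p = 0.030). At an unadjusted p under 0.05, 1 of the 13 was higher and 2 lower, and the median of the list was -0.39. Among 5 red cell genes Hba-a1 and Hba-a2 were higher, at 3.26 each (adjusted p = 0.012), and Slc4a1 was lower, at -2.04 (adjusted p = 0.032). More cells of a type and more RNA per cell cannot be told apart in such tissue, and the part of these cells in the histone values was not tested.

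The level taken as 0 decides the direction of the histone ratios. On the scale of the deposited values the cluster median was 0.50, the replacement median -0.15 and the median of all genes and probes -1.52. There 0 histone genes were higher and 3 were lower (H4bc24, H3c1 and H2bc21), against 28.9% of all that were lower. With each array set to its 133 ribosomal protein probes, whose medians lay 2.32, 3.77, 1.30, 1.09 and 1.69 above the array medians, the histone medians were -0.31 for cluster and -0.78 for replacement genes, against -2.22 for all. On that scale 0 of the 21 genes passed in either direction, and 17 other histone genes were lower, against 70.0% of all. In all 3 scales both histone classes lay above the median of all genes. A change of reference level shifts every probe of an array alike, so it cannot move the distance between the class medians on any array. The distance between the medians of gene means can move, since some genes were not measured on every array.

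**Figure D4:**
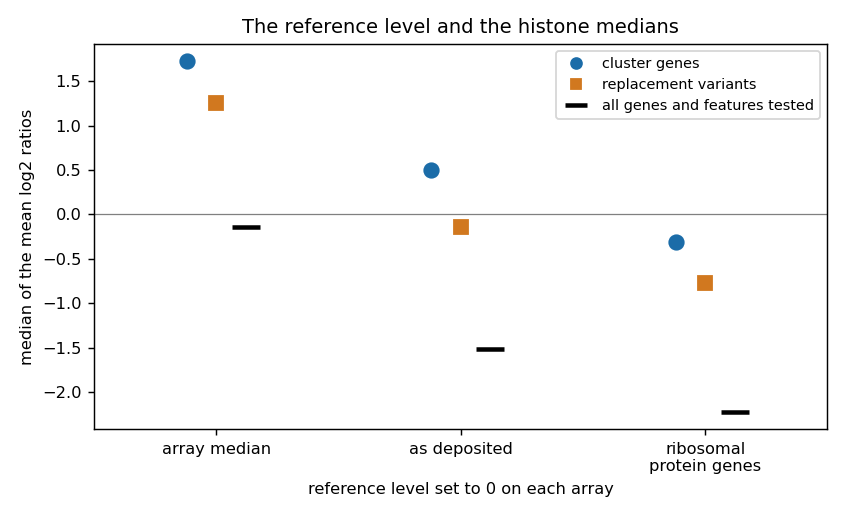
Median of the mean log2 ratios of cluster genes (circles), replacement variants (squares) and all genes and features tested (lines), with the array median, the deposited values or the ribosomal protein probes taken as 0. Histone medians are 1.72 and 1.26 with the array median as 0 and -0.31 and -0.78 with the ribosomal protein probes, above the line of all genes in each.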

How the data were processed

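For each of 44290 probes on 5 arrays the deposited table gives a log2 ratio of channel 1 over channel 2 or the reverse. The labels give laser dissection, total RNA and the dyes; the image reading, background correction and normalization are not given in the sources used here, and intensities were not used here. Exact zeros and the ceiling value of 16.61 were taken as not measured, which removed 2, 3, 5, 4 and 16 of the 65 histone probe values on arrays 1 to 5. Of all 44290 probes, 39470, 38208, 36009, 33611 and 19745 stayed measured, so the median of array 5 rests on far fewer probes. Rank correlations between arrays ran from 0.29 to 0.44. Each array was centred on its median, and probes of 1 symbol were averaged. All 5 arrays form 1 group.

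Symbols came from the platform annotation, and older symbols from RefSeq (GRCm38.p6). The name prefixes were meant to set the class, but current names give H1f1 to H1f6 to genes of the Hist1 cluster, so older symbols set it: Hist genes are cluster genes, and H2af, H3f3 and other H1f genes replacement variants. Probes with several symbols, 2 for histones, were left out.

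Genes measured on at least 3 arrays were fitted with an intercept alone and moderated by empirical Bayes (limma 3.58.1, R 4.3.3) and were judged at a Benjamini-Hochberg adjusted p of 0.05. Values of all arrays are given for histone genes past it and for all replacement and H1 genes. They are also given for the 5 highest and 5 lowest cluster genes measured on all arrays. In the lists, up to 4 genes past the threshold are named. For histone mRNA processing and the further histone genes, the 2 with the smallest p are named instead. Several list genes are given by their mean alone. Other genes were named after their values were seen. On simulated data for 28035 genes, shifts of 2 on the log2 scale were recovered in 43 of 100 genes and shifts of 4 in 100 of 100, with 12 false calls. The number of arrays limits the precision.

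Members, lists and alternatives were chosen with earlier results of these data known. The 18 alternatives covered the reference level, scaling, missing values, small ratios, each array left out, array subsets, the variance model, array weights and the treatment of probes.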

Additional observations from a re-analysis of the deposited data

Results flagged for a closer look

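Of 47 histone genes measured on 4 or 5 arrays, 5 had an array whose gap to the others passed Dixon's limit, and chance alone flags about 1 in 20. H2aw lay at 3.02 on array 2, against 1.33 to 1.59 on the other arrays. H3f3a lay at 3.89 on array 2, against 1.32 to 2.05. H2ax lay at 2.00 on array 2, against -0.13 to 0.36. H4c4 lay at -0.66 on array 5, against 1.09 to 1.66. H2bc21 lay at -1.53 on array 3, against -0.60 to -0.47. In 3 of the 5 genes the array that stood apart was array 2, on which the medians of both histone classes were highest.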

How the results depend on the processing

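The 21 higher histone genes and the 1976 genes called over the whole table were lost or turned with other choices of arrays, reference level and reading of zeros. Leaving out 1 array at a time gave 1 to 22 histone genes and 64 to 1950 over the whole table: without array 1 it was 1 and 64, and without array 2 it was 1 and 76. Arrays 3 to 5 alone gave 0 and 0 in limma. At an unadjusted p under 0.05 these arrays gave 22 of 36 histone genes and 2722 of 12689 over all. The cluster median stayed from 1.33 to 1.87 over all these sets of arrays. With exact zeros kept there were 0 histone genes and 62 over all, and with the ceiling value kept too 0 and 0. At an unadjusted p under 0.05 there were 23 of 49 histone genes in each. The counts over all were then 5138 of 31330 and 3740 of 31335. Single probes gave 2993 over all, and 29 of 64 histone probes.

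Without centring, 8174 genes were called, 8111 of them lower, and 3 histone genes, all lower. The class medians were then 0.50 (cluster) and -0.15 (replacement). Centred on ribosomal protein genes, 19659 were called, 19620 of them lower, and 17 histone genes, all lower. The class medians were then -0.31 and -0.78. In that setting H4c14 (-0.18), H2aw (-0.25), H1f1 (-0.29) and H1f10 (-0.038) of the 21 turned below 0, and H1f4 (-1.83), H2ax (-1.51), H2az2 (-1.84), Macroh2a1 (-1.86) and Macroh2a2 (-1.81) were lower. Without ratios of small whole numbers the medians were 2.35 and 2.08, and 26 of 30 histone genes were called, H2aj, H2al2a and H2az1 among them. These shifts follow from the level taken as 0 or the probes kept. In the other alternatives the histone count stayed from 20 to 23, and the class difference ran from 0.14 (single probes) to 0.65 (genes measured on all 5 arrays), with 0.29 without array 3, each within 0.50, its SD between arrays, of 0.46. Sign changes of members that passed neither before nor after were not counted as reversals. The number of arrays and the many ratios of small whole numbers limit what can be shown. Each ratio already pairs a cocaine with a saline sample on 1 array, so the fit is a paired one, and with 1 group of arrays no other block could be fitted.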

Other observations

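A pair of probes carry the symbol of H2ac18 beside that of another H2A gene and were left out of the gene values. The first had 0.70, -0.95, -0.71 and 0.74 on arrays 2 to 5 (mean -0.054, adjusted p = 0.96, limma), and the second had -0.49, -1.09 and -1.21 on arrays 1 to 3 (mean -0.93, adjusted p = 0.35, limma). Both lay below the median of the cluster H2A genes, 2.25, and below H2ac18 itself, which was called higher from 1 other probe (mean 2.44).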
